A study of Mus musculus with 8 samples.

Results

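The Gimap genes encode a family of 8 small GTPases in the mouse, Gimap1 and Gimap3 to Gimap9, and were followed here in whole lung of Fra-2 transgenic and wild-type mice. They were chosen by gene symbol, as the 10 named array spots that carry one of the 8 symbols, out of 31465 named spots for 20863 genes. The family was selected from this series with the transgenic against wild-type values in view, so that contrast is described for its members and is not tested. The wild-type group held 4 C57BL/6 mice and the transgenic group 4 C57BL/6 mice that over-express Fra-2, the AP-1 transcription factor encoded by Fosl2, all 8 weeks old. Each mouse gave 1 lung RNA sample on 1 single-colour Agilent array labelled with Cy5. The promoter that drives the transgene, the founder line and the sex of the mice are not stated in the labels.

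GIMAP proteins (GTPases of immunity-associated proteins) sit on internal membranes of lymphocytes and bind guanine nucleotides through a domain shared by the family. They are best known for keeping resting T and B cells alive, and several members are also read in endothelial cells. Whole lung holds both sources: lymphocytes in blood, tissue and airway-associated follicles, and a very large capillary endothelium. In RNA from whole tissue, fewer cells of a type and less RNA per cell cannot be told apart.

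All 8 genes lie side by side on chromosome 6, within 123.7 kb (GRCm38.p6, chr6:48647186-48770851, from the RefSeq gene table). Read along the chromosome the order is Gimap8, Gimap9, Gimap4, Gimap6, Gimap7, Gimap1, Gimap5 and Gimap3. Gimap6 and Gimap3 are on the minus strand and the other 6 on the plus strand. Each spot is tied to its gene by a RefSeq transcript accession, and which exon or untranslated part a spot reads is not known here. Gimap3 and Gimap5 are close relatives, and cross-reading between their spots was not tested.

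The promoters are shown because Fra-2 acts through AP-1 sites. The 250 bases before a transcript start of each member, from the RefSeq promoter table (GRCm38.p6), were searched on both strands for the AP-1 site TGANTCA, the ETS core GGAAGT and the RUNX core TGTGGT, motifs chosen with these sequences in view. For 6 members the window ended where the gene begins in the RefSeq gene table, and for Gimap8 and Gimap9 it reached 48 and 14 bases into the gene as that table gives it. An AP-1 match was found in 0 of the 8 member promoters and in 6.7% of all 32851 promoters of that length in the table. An ETS match stood in 2 members, Gimap5 with 2 copies and Gimap6 with 1, against 19.7% of all promoters. A RUNX match stood in 3 members, Gimap4, Gimap7 and Gimap1, against 14.0% of all promoters. No matches overlap in the member windows, and a match or its absence says only which letters are present. Below are Gimap5 (chr6:48745947-48746196, plus strand), whose groups did not overlap, Gimap1 (chr6:48738797-48739046, plus strand), with the widest spread among wild-type mice, Gimap6 (chr6:48708245-48708494, minus strand), on the opposite strand, and Gimap8 (chr6:48646984-48647233, plus strand, the first of 2 starts in the promoter table), the 1 member that was not lowest in wild-type mouse 4. Capitals mark the ETS matches in Gimap5 and Gimap6 and the RUNX match, read on the reverse strand, in Gimap1, and Gimap8 held no match.

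Gimap5: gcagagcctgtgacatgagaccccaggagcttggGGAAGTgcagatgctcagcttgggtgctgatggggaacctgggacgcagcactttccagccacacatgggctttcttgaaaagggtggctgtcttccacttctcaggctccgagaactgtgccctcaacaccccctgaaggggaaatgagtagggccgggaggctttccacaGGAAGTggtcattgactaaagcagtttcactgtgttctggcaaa

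Gimap1: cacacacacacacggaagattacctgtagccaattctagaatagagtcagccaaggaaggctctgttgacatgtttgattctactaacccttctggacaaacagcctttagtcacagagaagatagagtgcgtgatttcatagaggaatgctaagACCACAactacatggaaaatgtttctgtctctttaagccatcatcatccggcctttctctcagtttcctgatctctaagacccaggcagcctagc

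Gimap6: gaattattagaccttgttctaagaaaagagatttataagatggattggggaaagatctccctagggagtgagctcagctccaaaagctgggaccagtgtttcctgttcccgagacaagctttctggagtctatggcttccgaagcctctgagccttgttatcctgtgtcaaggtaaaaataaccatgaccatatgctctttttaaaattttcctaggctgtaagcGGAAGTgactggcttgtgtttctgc

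Gimap8: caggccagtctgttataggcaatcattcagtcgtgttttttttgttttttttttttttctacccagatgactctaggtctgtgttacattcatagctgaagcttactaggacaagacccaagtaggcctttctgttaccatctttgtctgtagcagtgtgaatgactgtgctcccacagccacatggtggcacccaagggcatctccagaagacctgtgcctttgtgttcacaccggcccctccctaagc

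Levels are log2 normalised intensities, where a step of 1 is a doubling, and levels of different spots are not set against each other. A floor for dim signals was set at the median of all spots, 4.74, and all 8 genes lay above it in all 8 mice. Both mice numbered 4 were less like the rest of their groups, wild-type and transgenic with mean correlations of 0.976 and 0.979 with the other arrays of their own group, against 0.982 to 0.985 for the other 6 mice. Member values are therefore given with and without wild-type mouse 4. Of 12 lung epithelial genes fixed as a check of the tissue, including the surfactant genes Sftpb and Sftpc, all 12 had means above the floor, and their mean level lay between 14.18 and 14.49 in all 8 mice. None of the 12 passed (limma, 0 at an unadjusted p under 0.05), with Foxj1 at -0.29, Nkx2-1 at -0.14 and Sftpb at -0.10. Sftpb had means of 15.96 in wild-type and 15.86 in transgenic mice. Whether spots that bright were saturated, which could hide a difference, was not tested. The brighter of 2 Fosl2 spots had means of 10.61 ± 0.37 in wild-type and 9.86 ± 0.59 in transgenic lung (SD, n = 4 each). Its groups overlapped. The dimmer spot had means of 4.52 ± 0.88, under the floor, and 6.97 ± 0.64. Its values ran from 3.44 to 5.58 in wild-type and from 6.35 to 7.85 in transgenic mice, without overlap. The targeted gene thus gave opposite directions by spot.

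Gimap differences between the genotypes were small and mostly positive, and their size changed when 1 wild-type mouse was left out. The difference, transgenic minus wild type, was positive for 7 of the 8 genes and ran from -0.07 for Gimap7 to 0.56 for Gimap9, with a median of 0.34. Standard errors from the limma fit over all genes ran from 0.15 to 0.28. Over all 20863 genes 52.4% had a positive difference and the median was 0.01. Without wild-type mouse 4 the members' median was 0.24, with 6 of 8 positive. Without both mice numbered 4 it was 0.10, again with 6 of 8 positive. Of the 8 genes, 0 passed the threshold (limma, Benjamini-Hochberg adjusted p under 0.05 over all genes), which 45 of all genes passed, or 0.216%. An unadjusted limma p under 0.05 was reached by 1 member, Gimap5, and by 9.15% of all genes. Values without overlap between the groups, higher in transgenic lung, were found for 1 member, Gimap5, and for 3.99% of all genes. With wild-type mouse 4 left out they were found for 2 members, Gimap8 and Gimap5, and for 6.76% of all genes. Since the contrast was in view when the family was chosen, nothing is read from these counts.

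**Figure D1:**
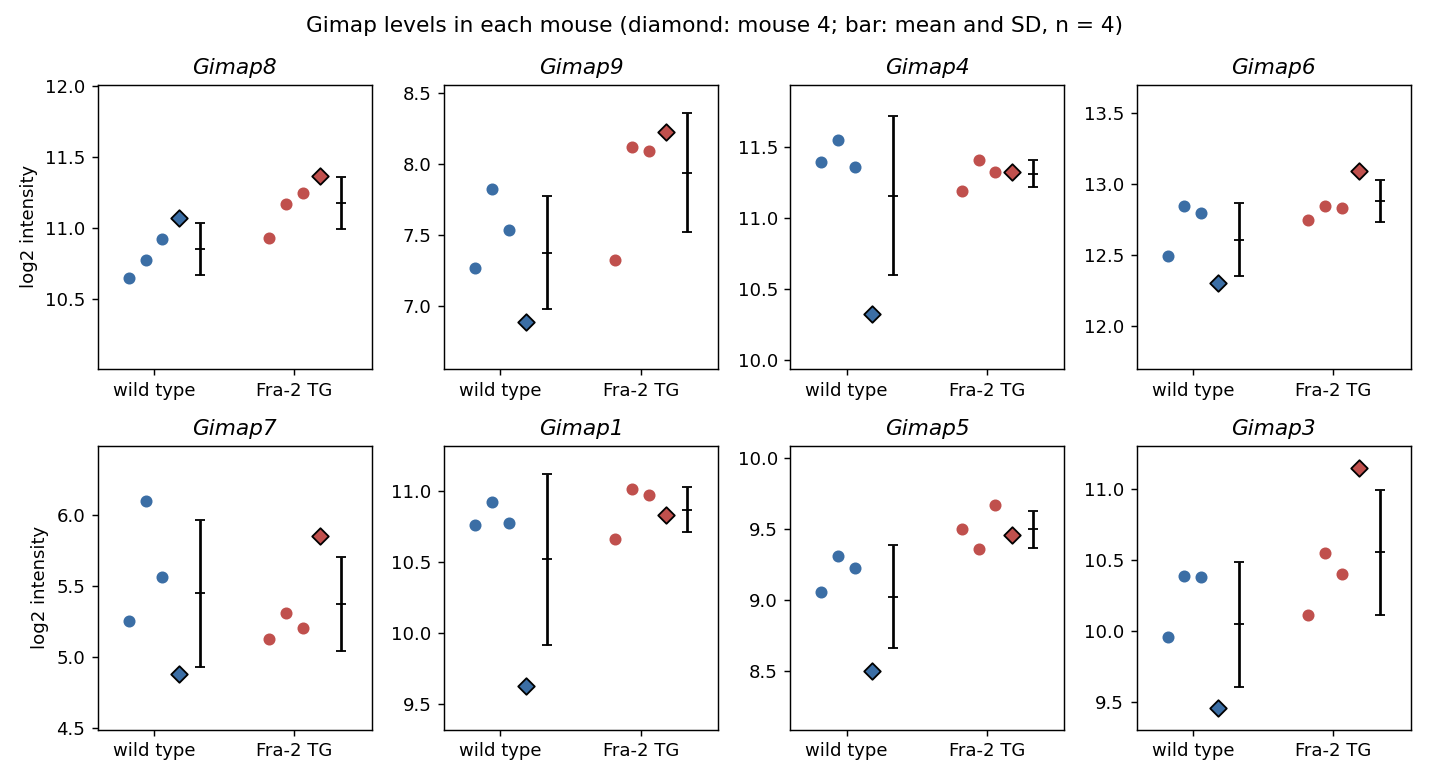
Log2 intensity (y axis, a span of 2 in each panel) of the spot standing for each Gimap gene in 4 wild-type (blue) and 4 transgenic (red) lungs, in chromosomal order; points are mice, diamonds mark the mice numbered 4, and bars give the mean and SD. Wild-type mouse 4 is the lowest of all 8 mice for 7 genes, and for Gimap8 it is the highest wild-type mouse.

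Gimap5, a lysosomal member whose loss depletes T cells and other lymphocytes in rats and mice, was the 1 gene whose groups did not overlap. It read 9.05, 9.31, 9.22 and 8.50 in the wild-type animals, numbered 1 to 4, and 9.50, 9.36, 9.67 and 9.46 in the transgenic animals, numbered likewise. The lowest transgenic value, 9.36, lay just above the highest wild-type value, 9.31. Group means of 9.02 ± 0.36 and 9.49 ± 0.13 (SD, n = 4 each) differed by 0.47 (SE 0.19), or 1.39-fold. Without wild-type mouse 4 the difference was 0.30 (SE 0.12).

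Gimap3, a close relative of Gimap5 that has been linked to Bcl2 family proteins and T cell survival, read 9.96, 10.39, 10.39 and 9.46 in the wild-type animals and 10.12, 10.55, 10.40 and 11.15 in the transgenic animals. Transgenic mouse 4 was the highest and wild-type mouse 4 the lowest, and the other 6 mice overlapped. Group means of 10.05 ± 0.44 and 10.56 ± 0.44 (SD, n = 4 each) differed by 0.51 (SE 0.28), or 1.42-fold. Leaving out wild-type mouse 4 made it 0.31, and leaving out both mice numbered 4 made it 0.11.

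Gimap1, which mature T and B cells need for their survival, had the largest drop of the 8 genes in wild-type mouse 4. It read 10.76, 10.92, 10.77 and 9.62 in the wild-type animals, and 10.66, 11.01, 10.97 and 10.83 in the transgenic animals. Wild-type mouse 4 differed from the mean of the other 3 wild-type mice by -1.19 on the log2 scale, 2.29-fold lower, and those 3 lay within the transgenic range. The log2 difference between the groups was 0.35 (SE 0.28), and 0.05 (SE 0.12) without that mouse.

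Gimap4, known for hastening the death of T cells once apoptosis has been triggered, was low in the same mouse. Its brightest spot read 11.39, 11.55, 11.36 and 10.32 in the wild-type animals, and 11.19, 11.41, 11.32 and 11.32 in the transgenic animals. The 4 transgenic values spread little (SD 0.09), and wild-type mice 1 to 3 were at their upper end or above. The log2 difference was 0.16 (SE 0.26) with all mice and -0.12 (SE 0.11) without wild-type mouse 4. Gimap4 is the 1 member with several spots, and its other 2 spots had differences of 0.10 and 0.05, which became -0.08 and -0.04 without that mouse. All 3 spots therefore changed sign when the same mouse was left out.

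Gimap8, a member with several GTPase domains in a row and a role in B cell death, was the 1 member that was not lowest in wild-type mouse 4. It read 10.65, 10.77, 10.92 and 11.07 in the wild-type animals, and 10.93, 11.17, 11.24 and 11.36 in the transgenic animals. Wild-type mouse 4 was the highest wild-type mouse and lay above transgenic mouse 1, the only overlap between the groups. Group means of 10.85 ± 0.18 and 11.18 ± 0.18 (SD, n = 4 each) differed by 0.32 (SE 0.15), or 1.25-fold. Without wild-type mouse 4 the difference was 0.40 (SE 0.14).

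Gimap6, which binds the autophagy protein Gabarapl2, read 12.49, 12.85, 12.80 and 12.31 in the wild-type animals and 12.75, 12.85, 12.83 and 13.09 in the transgenic animals. Wild-type mice 1 and 4 lay below all transgenic mice, and mice 2 and 3 lay among them. The log2 difference was 0.27 (SE 0.16), 0.17 when wild-type mouse 4 was left out and 0.10 when both mice numbered 4 were.

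Gimap9 and Gimap7, for which fewer functions are described, had the highest and the lowest difference of the 8 genes. Gimap9 read 7.27, 7.82, 7.54 and 6.89 in the wild-type animals and 7.32, 8.12, 8.09 and 8.23 in the transgenic animals. Transgenic mouse 1 lay among the wild-type values and the other 3 transgenic mice above them all, giving means of 7.38 ± 0.40 and 7.94 ± 0.42 (SD, n = 4 each). Its log2 difference of 0.56 (SE 0.26), or 1.48-fold, became 0.40 (SE 0.25) without wild-type mouse 4. Gimap7, whose GTPase domains activate one another when they pair, read 5.25, 6.10, 5.57 and 4.88 in the wild-type animals and 5.13, 5.31, 5.21 and 5.85 in the transgenic animals. The transgenic values all lay within the wild-type range, and the log2 difference of -0.07 (SE 0.28) turned to 0.14 without wild-type mouse 2 and to 0.01 without transgenic mouse 1, and was -0.26 without wild-type mouse 4.

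**Figure D2:**
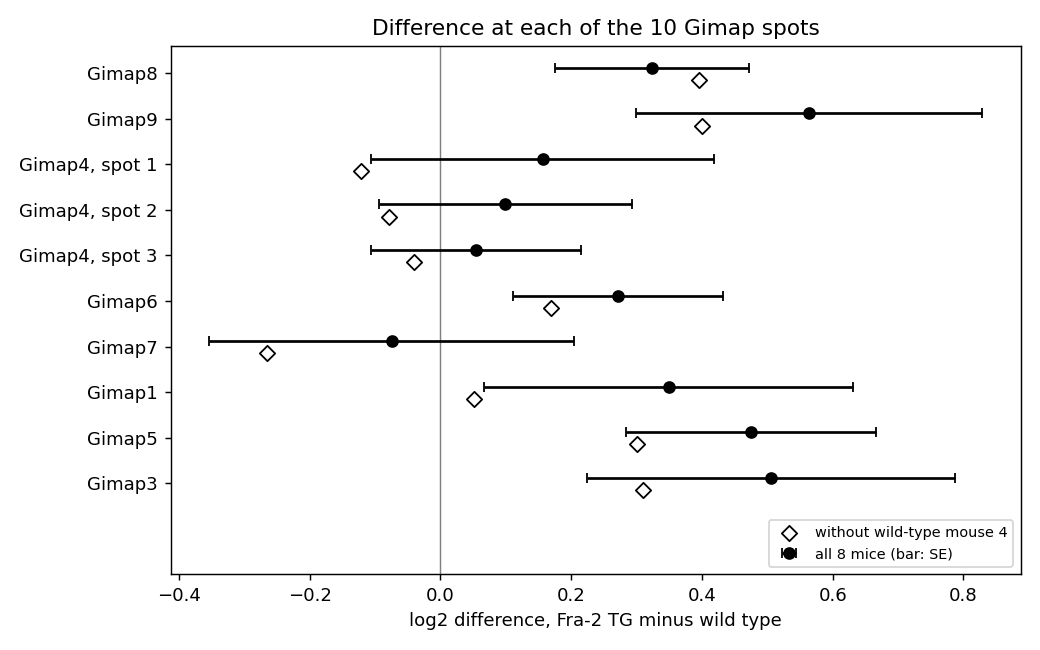
Log2 difference, transgenic minus wild type (x axis), at each of the 10 Gimap spots (y axis, chromosomal order, Gimap4 spots from brightest to dimmest); filled circles use all 8 mice with the SE as bar, and open diamonds leave out wild-type mouse 4. With all mice 9 of 10 spots lie above 0, and without that mouse 6 of 10.

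Most members had their lowest value in the same mouse. Wild-type mouse 4 was the lowest of all 8 mice for 7 of the 8 genes, all but Gimap8. It was the lowest for 22.9% of all genes and for 26.5% of genes with a mean above the floor. Relative to the mean of wild-type mice 1 to 3 it differed by a median of -0.73 over the 8 genes, from -1.19 for Gimap1 to 0.29 for Gimap8, against a median of 0.01 over all genes. At the other end, transgenic mouse 4 was the highest mouse for 4 genes (Gimap8, Gimap9, Gimap6 and Gimap3), wild-type mouse 2 for Gimap4 and Gimap7, transgenic mouse 2 for Gimap1 and transgenic mouse 3 for Gimap5. The mean level of the 8 genes was 9.60, 9.96, 9.82 and 9.13 in wild-type mice 1 to 4 and 9.70, 9.97, 9.97 and 10.16 in transgenic mice 1 to 4. On this mean, wild-type mouse 2 stood level with transgenic mice 2 and 3, and wild-type mouse 3 above transgenic mouse 1.

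How far a member followed the mean of the other 7 depended on that 1 mouse for some members and hardly for others. Over all 8 mice Pearson's r ran from 0.27 for Gimap8 and 0.62 for Gimap7 to 0.92 for Gimap3 and 0.95 for Gimap6. Without wild-type mouse 4 it was 0.91 for Gimap9, 0.92 for Gimap6 and 0.87 for Gimap3, close to their values with all mice. It went from 0.79 to 0.17 for Gimap4, from 0.62 to 0.37 for Gimap7, from 0.82 to 0.41 for Gimap5 and from 0.85 to 0.56 for Gimap1, whereas for Gimap8 it went from 0.27 to 0.71. These values describe 8 arrays, or 7, of 2 genotypes.

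Markers of the cells that carry GIMAP proteins moved with this pattern in part. Of 22 T cell genes 20 had a named spot, 19 of these had a positive difference and their median was 0.92, or 0.61 without wild-type mouse 4. None passed the test over all genes (limma; 14 reached an unadjusted p under 0.05, and 5 passed the adjusted threshold with a trended, robust variance). Tcf7, a transcription factor of naive T cells, differed by 0.85 (SE 0.14, limma adjusted p = 0.0846), Cd5, a brake on T cell receptor signalling, by 1.40 (SE 0.24, limma adjusted p = 0.101) and Lat, an adaptor of that receptor, by 1.15 (SE 0.21, limma adjusted p = 0.114). The mean level of the T cell list ran from 7.01 to 7.98 in wild-type and from 8.25 to 8.62 in transgenic mice, without overlap, while the Gimap mean ran from 9.13 to 9.96 and from 9.70 to 10.16, with overlap. The means of 3 T cell genes, Cd247, Themis and Ubash3a, lay under the floor. The part of T cell content in the Gimap values was not tested.

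Wild-type mouse 4 was also low in most lists. Relative to the mean of wild-type mice 1 to 3 it stood at -0.66 for the Gimap genes and -0.78 for T cell genes. For B cell and pan-leukocyte genes it stood at -1.14 and -1.03, and for endothelial and lung epithelial genes at -0.29 and -0.17. It stood at -0.42 for autophagy, -0.41 for lymphatic endothelial, -0.36 for NK cell and -0.33 for red cell genes. For lymphocyte survival genes and other immune GTPases it stood at -0.17 and -0.004. The thymocyte list stood at 0.11 and the chromosomal neighbours at 0.22. Transgenic mouse 4 stood at 0.37 for the Gimap genes, 0.84 for T cell genes, 0.96 for B cell genes and 0.45 for pan-leukocyte genes, against -0.25 for endothelial genes. Their part in the low and high Gimap values of these 2 mice was not tested.

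**Figure D3:**
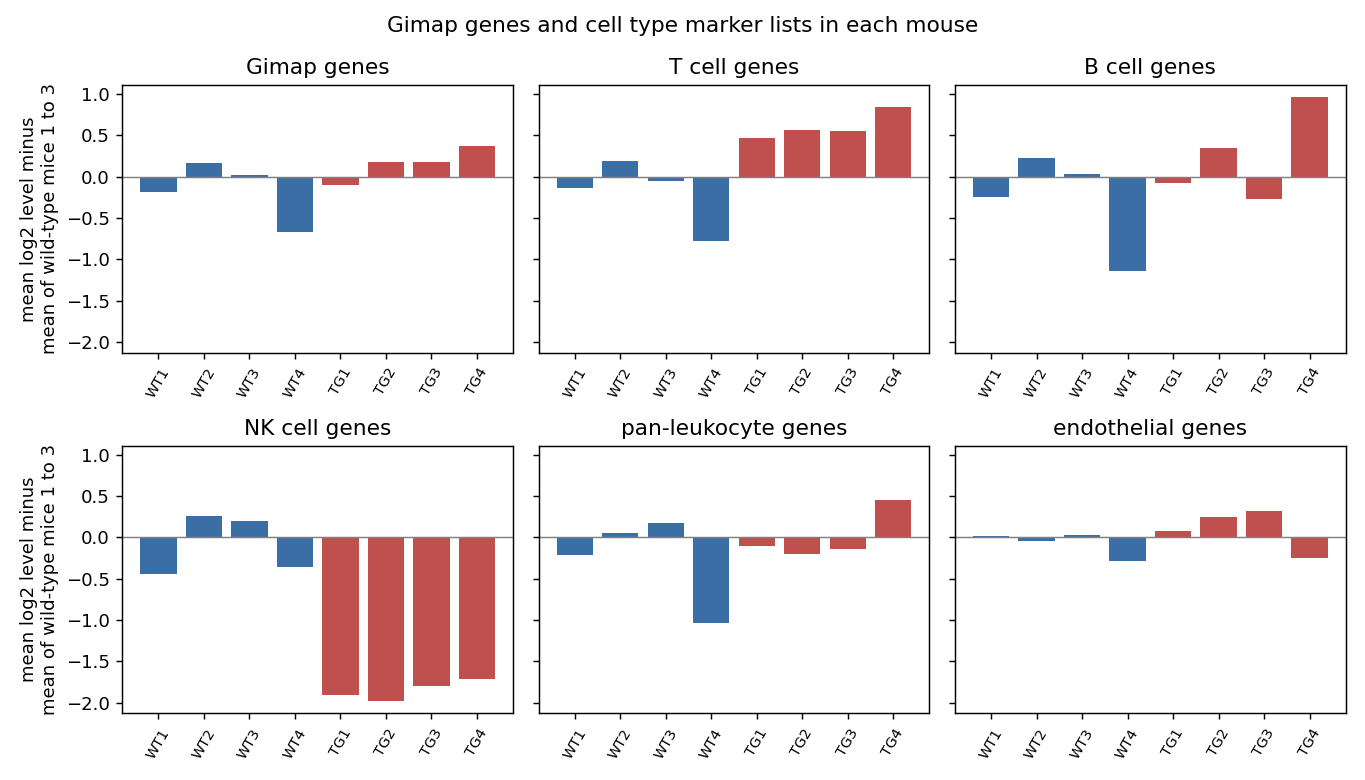
Mean log2 level in each mouse minus the mean of wild-type mice 1 to 3 (y axis) for the 8 Gimap genes and 5 marker lists, in wild-type (blue) and transgenic (red) mice. Wild-type mouse 4 lies lowest for the Gimap, T cell, B cell, pan-leukocyte and endothelial genes, whereas NK cell genes are low in all 4 transgenic mice.

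Of the other immune gene lists, NK cell genes differed in direction from the Gimap genes. B cell and pan-leukocyte genes had mostly positive differences with all 8 mice, as the Gimap genes did. Without wild-type mouse 4, 7 of 11 B cell and 6 of 10 pan-leukocyte differences were positive. Transgenic mice 1 to 4 stood at -0.11, -0.20, -0.14 and 0.45 for pan-leukocyte genes, relative to the mean of wild-type mice 1 to 3. For B cell genes they stood at -0.08, 0.35, -0.27 and 0.96, and for Gimap genes at -0.10, 0.18, 0.17 and 0.37. Of 14 NK cell genes 4 fell and 0 rose (limma adjusted p from 0.000888 for Klra8 to 0.0150 for Ncr1; the others were Klre1 and Gzma), the median difference was -1.51, and the mean level ran from 7.80 to 8.50 in wild-type and from 6.27 to 6.54 in transgenic mice. Thus 13 of 14 NK cell differences were negative in the comparison in which 7 of 8 Gimap differences were positive. Of 12 B cell genes 11 had a named spot, 10 differences were positive with a median of 0.59 (0.27 without wild-type mouse 4), and 0 passed (limma; 1 at an unadjusted p under 0.05, Ms4a1, which encodes CD20, at 1.19, SE 0.51, limma adjusted p = 0.538). Bank1 and Cd79b, parts of B cell receptor signalling, differed by 0.94 and 0.75. The B cell mean ran from 7.50 to 8.86 in wild-type and from 8.37 to 9.60 in transgenic mice, with overlap. Of 10 pan-leukocyte genes 9 differences were positive with a median of 0.30 (0.05 without wild-type mouse 4), and 0 passed (limma; 0 at an unadjusted p under 0.05). The smallest p-values there belonged to Itgal (-0.36), Cd53 (0.81) and Arhgdib (0.32). A further list held 10 genes of thymocytes and thymic tissue, not all particular to thymocytes, and 9 had a named spot. The means of 6 lay under the floor (Rag1, Rag2, Ptcra, Aire, Foxn1 and Psmb11). Of the 9, 3 differences were positive, with a median of -0.05 (-0.03 without wild-type mouse 4). None passed (limma), and 2 reached an unadjusted limma p under 0.05. Those were Dntt at 1.24 (SE 0.24, limma adjusted p = 0.150) and Cd1d1 at 0.40. Dntt lay near the floor in wild-type mice, at 4.80, 4.63, 4.87 and 5.47 in mice 1 to 4. Psmb11, next by p-value and under the floor, differed by -0.99.

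Endothelial genes, the second known source of GIMAP transcripts, were all above the floor. Of 18 genes 11 had a positive difference, with a median of 0.07 (0.11 without wild-type mouse 4), and 0 passed (limma; 3 at an unadjusted p under 0.05, and 1 passed the adjusted threshold with a trended, robust variance). Sox17, an arterial transcription factor, differed by 0.87 (SE 0.14, limma adjusted p = 0.0702), Emcn, a capillary and venous sialomucin, by 1.18 (SE 0.33, limma adjusted p = 0.315) and Tie1, an endothelial receptor kinase, by 0.57 (SE 0.18, limma adjusted p = 0.370). The mean level ran from 12.18 to 12.50 in wild-type and from 12.22 to 12.78 in transgenic mice, lowest in the mice numbered 4 of either group. Of 7 lymphatic endothelial genes 6 had a named spot, 5 differences were positive with a median of 0.34, and 0 passed (limma; 1 at an unadjusted p under 0.05, the hyaluronan receptor gene Lyve1 at 0.53, SE 0.13, limma adjusted p = 0.246). Prox1 and Mmrn1 of that list differed by 0.34 and 0.39. Without wild-type mouse 4 the median of the lymphatic list was 0.13, with 4 positive. Of 10 red cell genes 7 had a named spot, 6 differences were negative with a median of -0.67, and 0 passed (limma; 4 at an unadjusted p under 0.05), with the haemoglobin genes Hbb-bs and Hbb-b2 at -1.38 and -1.04 and the haem enzyme Alas2 at -1.28.

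No gene passed in the lists of lymphocyte survival, autophagy and other immune GTPases. Of 22 genes of lymphocyte survival, from the Bcl2 family to the interleukin 7 pathway, 20 had a named spot, 14 differences were positive with a median of 0.15, and 0 passed (limma; 2 at an unadjusted p under 0.05). Those were Il2rg, the shared cytokine receptor chain, at 0.65 (SE 0.24, limma adjusted p = 0.468) and Il7r, the interleukin 7 receptor, at 0.47 (SE 0.18, limma adjusted p = 0.470), followed by the kinase gene Jak3 at 0.34. For 14 autophagy genes, among them the Gimap6 partner Gabarapl2, the median was 0.01 with 7 positive. Without wild-type mouse 4 this median was -0.09 with 2 positive. Of the 14 autophagy genes 0 passed (limma, 0 at an unadjusted p under 0.05). The smallest p-values were those of Atg12 (-0.13), Atg5 (0.12) and Becn1 (0.16). For 16 other GTPases of immune defence, the Gbp, Irg and Mx families and Gvin1, the median was -0.03 with 8 positive, and 0 passed (limma; 4 reached an unadjusted p under 0.05, 3 of them higher). Among these, Irgm2 differed by -0.67 (SE 0.23, limma adjusted p = 0.436), Gbp2 by 0.63 (SE 0.26, limma adjusted p = 0.520) and Gbp4 by 0.86 (SE 0.37, limma adjusted p = 0.532).

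The genes around the cluster gave a local comparison. Of the 8 nearest protein-coding genes on each side, 16 in all, 10 had a positive difference with a median of 0.07, and 0 passed (limma; 2 at an unadjusted p under 0.05). The means of 5 of them, Sspo, Gm5111, Zfp775, Doxl2 and Svs1, lay under the floor. Tmem176b and Tmem176a, the nearest genes beyond Gimap3 and membrane proteins known from dendritic cells, differed by 0.06 (SE 0.12) and 0.04 (SE 0.16). Gpnmb, a glycoprotein of macrophages and the farthest of the 16, differed by 1.02 (SE 0.33, limma adjusted p = 0.404), and Gm7932 by 0.45 (SE 0.16, limma adjusted p = 0.468).

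**Figure D4:**
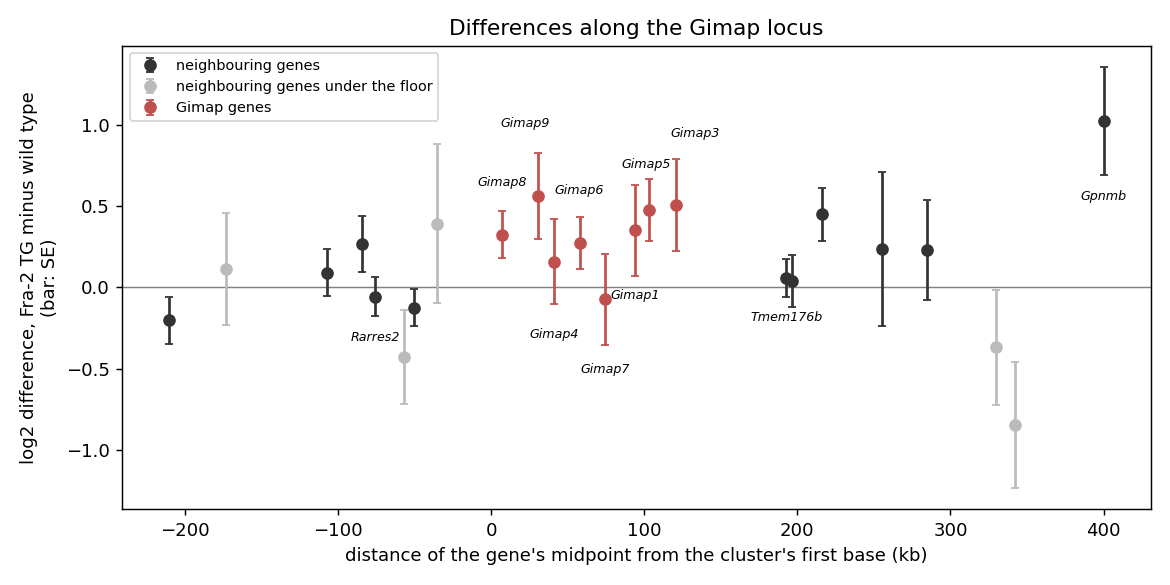
Log2 difference, transgenic minus wild type, with its SE (y axis), for the 8 Gimap genes (red) and the 16 neighbouring genes (black, or grey where the mean over the 8 mice lies under the floor of 4.74), against the distance of each gene's midpoint from the first base of the cluster in kb (x axis). The Gimap genes, chosen with this contrast in view, have a median of 0.34 and their neighbours of 0.07. Without wild-type mouse 4 these medians are 0.24 and 0.07.

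The genes whose levels followed the Gimap mean most closely over the 8 mice were Zfp511 (Pearson r = 0.987), Dmac2 (0.983), Fcrl1 (0.978), Slc14a1 (0.978) and Arpc4 (0.977), the top 5 of 14304 non-member genes above the floor. These values describe 8 mice that share the low level of wild-type mouse 4 and were picked as the highest of many, and without that mouse they were 0.964, 0.944, 0.950, 0.932 and 0.933. Fcrl1 encodes an Fc receptor-like protein of B cells and Arpc4 a subunit of the Arp2/3 actin complex. Fcrl1 read 5.19, 5.79, 5.81 and 4.51 in the wild-type animals and 5.46, 5.99, 5.77 and 6.41 in the transgenic animals. Zfp511, the closest of the 5, read 10.06, 10.24, 10.19 and 9.77 in the wild-type animals and 10.15, 10.36, 10.35 and 10.46 in the transgenic animals. All 5 genes were lowest in wild-type mouse 4, as most Gimap genes were, and highest in transgenic mouse 4, as Gimap3 was.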

How the data were processed

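Lung RNA of 4 wild-type and 4 transgenic mice was measured with 1 Agilent array per mouse, and groups and mouse numbers came from the labels. The authors deposited linear intensity values for 62976 spots. R 2.15.1 and limma 3.14.4 are named in the submitters' processing notes, without the steps taken. All arrays had the same median, 26.6, so they had been brought to a common distribution. Differences in total signal between mice are thereby removed, and flags for dim or saturated spots were not used here.

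Symbols from the platform annotation (31465 spots with 1 symbol, none with several, 31511 unnamed) were updated through RefSeq accessions to GRCm38.p6 names, matching 29050 spots and giving 20863 genes. The brightest spot by its mean over 8 arrays stood for a gene. The log2 values, with no offset, were fitted with limma 3.58.1 in R 4.3.3 (with the data.table package, version 1.17.8), group as the only term, with Benjamini-Hochberg adjustment over all genes and a threshold of 0.05. The fit was tested on simulated data. The number of arrays limits the precision. Named were all members, Fosl2, the 3 genes of smallest p in each list and the 5 genes most like the family; Ncr1, Tmem176a, Tmem176b and genes named only as under the floor were picked after their values were seen. The members and lists were chosen with earlier results of these data known. The labels do not say that equal mouse numbers mark a shared litter or day, and the numbers were not used as pairs. Promoters were searched and figures drawn with Python 3.11.15 and matplotlib 3.10.9.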

Additional observations from a re-analysis of the deposited data

Results flagged for a closer look

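Over the 10 spots and both groups, 20 sets of 4 mice were screened for a mouse far from the other 3 of its group. In 3 sets such a mouse was found, where chance gives about 1 in 20 if sets are independent. The sets are the same 8 mice read at several spots and are not independent, so nothing is read from this count. Gimap4, at its brightest spot, stood at 10.32 in wild-type mouse 4 against 11.36 to 11.55 in the other wild-type mice. Gimap1 stood at 9.62 in the same mouse against 10.76 to 10.92. Gimap9 stood at 7.32 in transgenic mouse 1 against 8.09 to 8.23 in the other transgenic mice.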

How the results depend on the processing

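Rescaling each array to its 75th percentile or by quantiles left all counts as they were, since the arrays already shared 1 distribution. The count of 45 genes past the threshold became 71 with genes under the floor left out, 80 and 88 with offsets of 16 and 32, 118 with a trended, robust variance, 100 with array weights, 17 without both mice numbered 4, and 17 to 38 with any 1 mouse left out. The T cell count of 0 became 1 with genes under the floor left out, 2 with either offset or with array weights, and 5 with the robust variance; the endothelial count of 0 became 1 under each of these 5 settings. The NK cell count of 4 became 8 with the robust variance and 9 with array weights, and was 3 to 4 with 1 mouse left out. All other lists stayed at 0 under every setting run. With mouse number as a replicate block the counts were 5 genes in all and 1 NK cell gene; deviations of same-numbered mice correlated at -0.01 to 0.15, and 6 of the 8 mice correlated best with their own number, a hint of shared structure from the data. The labels do not say what the numbers share and not every pair of mice correlated above 0.1, the level set for pairing, so the block was kept as an alternative. The Gimap median ran from 0.24 to 0.42 and the number of positive differences from 6 to 8 with 1 mouse left out. With array weights, which gave wild-type mouse 4 the lowest weight, the median was 0.19 with 6 positive. The differences of Gimap5, Gimap8, Gimap9, Gimap3, Gimap6 and Gimap1 were positive under every setting run; Gimap4 was negative without wild-type mouse 4 (-0.12), without both mice numbered 4 (-0.13) and with array weights (-0.04). Apart from what a setting leaves out or weights, the cause was not tested. Gimap7 came closest to the floor of 4.74, at 4.88 in wild-type mouse 4.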
